A study of Caenorhabditis elegans with 2 samples.

Results

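The genes described here are 10 cuticle collagen genes of Caenorhabditis elegans in which mutations change the shape of the body: sqt-3, dpy-17, dpy-14, sqt-1, rol-6, dpy-2, dpy-3, dpy-7, dpy-8 and dpy-10. They were selected by name out of 19973 protein-coding genes. The choice was made with regions inside dpy-7, dpy-10, dpy-14 and sqt-3 already known from these data, so the regions at the 10 genes are given as a description and without a test. For each gene, all regions whose summit lay between 1000 bp upstream of the most upstream transcription start site (TSS) and the gene end were collected.

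The chromatin came from whole hermaphrodites of strain RW10702 in late embryonic development, at 3.5 hours after egg bleaching. The worms were transgenic and stably expressed the basic helix-loop-helix (bHLH) factor HLH-6 with GFP and FLAG at its C-terminus, and anti-GFP ChIP-seq was made in 2 biological replicates of this single group. Worms without the tag and the control experiment behind the lists were not analysed here. In whole embryos, occupancy in few cells and weaker occupancy in many cells cannot be told apart. Read depth is unknown, because the lists give no read counts.

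The cuticle is the collagen-rich coat that the epidermis secretes at its outer face, first in the embryo and again at each molt. Cuticle collagens are short proteins in which glycine leads repeated triplets (Gly-X-Y), so that chains wind into a triple helix, with cysteines and short gaps between the repeats. Mutations in such collagen genes commonly give a short, fat worm (dumpy, Dpy), a worm that rotates about its long axis (roller, Rol) or a mixture (squat, Sqt). HLH-6 is known for its role in the pharyngeal glands.

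The strongest region at each of the 10 genes lay inside coding sequence, over the part that encodes Gly-X-Y repeats. The sequences below are the 33 codons centred on the summit of the strongest pooled region of 8 genes, read 5′ to 3′ in frame on the coding strand, and they are shown because the repeats can be seen in them. Capitals mark glycine codons. The positions in ce11 are chrIII:5108051-5108149 for dpy-17 (plus strand), chrII:11337049-11337147 for sqt-1 (minus strand), chrII:8733578-8733676 for rol-6 (plus strand) and chrII:6715276-6715374 for dpy-2 (plus strand). The others are chrII:6710815-6710913 for dpy-10 (minus strand), chrX:2144928-2145026 for dpy-3 (minus strand), chrX:7536941-7537039 for dpy-7 (minus strand) and chrX:5149796-5149894 for dpy-8 (minus strand).
dpy-17: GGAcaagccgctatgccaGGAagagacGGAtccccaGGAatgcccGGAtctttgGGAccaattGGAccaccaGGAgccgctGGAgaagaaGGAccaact
sqt-1: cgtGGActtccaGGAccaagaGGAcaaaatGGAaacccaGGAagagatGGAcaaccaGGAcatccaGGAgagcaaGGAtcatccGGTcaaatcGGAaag
rol-6: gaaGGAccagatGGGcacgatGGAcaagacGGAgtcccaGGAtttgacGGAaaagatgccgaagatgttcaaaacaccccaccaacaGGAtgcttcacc
dpy-2: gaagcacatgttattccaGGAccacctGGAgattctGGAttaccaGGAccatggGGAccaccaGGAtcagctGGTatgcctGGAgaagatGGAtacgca
dpy-10: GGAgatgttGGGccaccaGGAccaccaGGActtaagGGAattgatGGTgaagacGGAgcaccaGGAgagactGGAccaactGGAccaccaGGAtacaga
dpy-3: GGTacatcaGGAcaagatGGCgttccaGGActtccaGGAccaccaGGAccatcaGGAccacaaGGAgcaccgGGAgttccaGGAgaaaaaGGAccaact
dpy-7: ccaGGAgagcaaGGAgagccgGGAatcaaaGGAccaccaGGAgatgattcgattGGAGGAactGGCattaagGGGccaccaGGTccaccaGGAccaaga
dpy-8: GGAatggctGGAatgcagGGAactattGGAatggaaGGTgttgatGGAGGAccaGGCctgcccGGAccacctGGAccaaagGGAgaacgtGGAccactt
Between 7 (rol-6) and 12 (dpy-8) of the 33 codons encode glycine. Runs in which a capital triplet returns after 6 lower-case bases are Gly-X-Y repeats. In rol-6 the run breaks off to the right of the middle, where the protein leaves the repeat for a short gap, and in dpy-7 the summit lies in a gap between adjoining repeats.

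The authors' signal value, a score whose scale is not given, ranks regions within a list. The optimal list held 912 regions, made by the authors with IDR, a method that compares the ranks of regions between replicates. It was identical with the 912 strongest regions of the pooled list, down to a signal value of 85.6. A place in the optimal list thus does not show that a region ranked alike in both replicates. The relaxed lists (pooled, replicate 1 and replicate 2) held 30000 regions each and reach far below any call, so a place in them counts only with its rank. Most regions share a single width of 460 bp (99.6% of the pooled list and 88.7% of the optimal list), with the summit at the middle.

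SQT-3 and DPY-17 are collagens known to act together in body shape. sqt-3 (V, 12352745 to 12354320) had an optimal region at 12353502 to 12353961 with a signal value of 107 (rank 426). Its strongest values were 59.3 in replicate 1 (rank 365) and 55.8 in replicate 2 (rank 469). These were the highest rank of the 10 genes in replicate 1 and in the pooled list, with both replicates close together. dpy-17 (III, 5107330 to 5108492) had no optimal region, and its strongest pooled region had a signal value of 82.5 (rank 1042). Replicate 1 gave 46.1 (rank 856) and replicate 2 gave 41.1 (rank 1552), so that dpy-17 was within the 912 strongest regions of replicate 1 and outside those of replicate 2.

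dpy-14, a cuticle collagen gene on chromosome I (6843589 to 6845142), had an optimal region with its summit at 6844660 and a signal value of 105 (rank 452). Replicate 1 gave 50.1 (rank 637) and replicate 2 gave 52.1 (rank 609), nearly the same rank in both.

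sqt-1 and rol-6 encode a pair of collagens whose mutant alleles interact, and a dominant rol-6 allele is widely used as a roller marker in worm transgenesis. Neither had an optimal region. sqt-1 (II, 11336693 to 11337837) reached a signal value of 66.6 in the pooled list (rank 2278), 31.1 in replicate 1 (rank 3544) and 42.0 in replicate 2 (rank 1409). rol-6 (II, 8733050 to 8734239) reached 62.1 in the pooled list (rank 2891), 34.0 in replicate 1 (rank 2649) and 30.2 in replicate 2 (rank 4675). The order of these genes thus turned round between the replicates, and neither was within the 912 strongest regions of a replicate.

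dpy-2, dpy-3, dpy-7, dpy-8 and dpy-10 encode furrow collagens, which form the circular furrows between the annuli of the cuticle and whose loss is known to switch on osmotic and detoxification responses. dpy-10 (II, 6710149 to 6712227) had an optimal region with its summit at 6710863 and a signal value of 101 (rank 502), with 50.1 in replicate 1 (rank 636) and 52.9 in replicate 2 (rank 571). dpy-7 (X, 7536467 to 7537792) had an optimal region with its summit at 7536989 and a signal value of 100.3 (rank 517), with 41.3 in replicate 1 (rank 1304) and 56.4 in replicate 2 (rank 452). dpy-10 stood alike in both replicates, whereas dpy-7 stood highest of the 10 genes in replicate 2 and outside the 912 strongest regions of replicate 1.

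dpy-2 (II, 6714292 to 6715971) reached a signal value of 83.0 in the pooled list (rank 1010), 33.3 in replicate 1 (rank 2819) and 44.9 in replicate 2 (rank 1102). dpy-3 (X, 2144605 to 2145647) reached 82.8 in the pooled list (rank 1021), 37.4 in replicate 1 (rank 1911) and 46.2 in replicate 2 (rank 978). Both stood just outside the optimal list, as did dpy-17. dpy-8 (X, 5148804 to 5150476) was the weakest of the 10 genes, with 55.1 in the pooled list (rank 4235), 39.2 in replicate 1 (rank 1596) and 22.8 in replicate 2 (rank 10402). Its rank in replicate 2 was the lowest of any of the 10 genes in either replicate. Around the end of the optimal list, the nearest of the 10 genes inside was dpy-7 (100.3) and the nearest outside was dpy-2 (83.0).

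**Figure D1:**
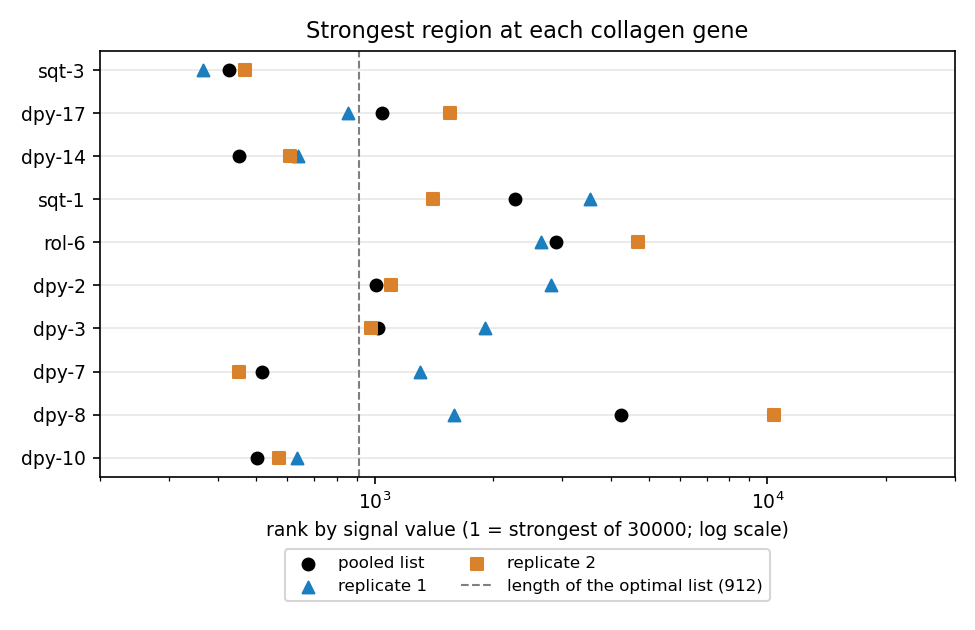
Rank of the strongest region at each of the 10 genes (rows) in the pooled list and in the list of each replicate, on a logarithmic axis. Points left of the dashed line are within the 912 strongest regions of their list, which holds for sqt-3, dpy-14 and dpy-10 in all 3 lists.

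In counts, 4 of the 10 genes had an optimal region in the window, against 3.92% of all protein-coding genes. All 4 had the summit in their own coding sequence, against 0.526% of all protein-coding genes. No optimal summit lay upstream of the TSS of any of the 10 genes, against 2.05% of all protein-coding genes. Because the choice of the genes used these regions, nothing is read from the distance between these shares.

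Each replicate taken alone gave the same count. The set from replicate 2 was the set with an optimal region, and the set from replicate 1 held dpy-17 in place of dpy-7. Of the 10 genes, 4 were within the 912 strongest regions of replicate 1 (sqt-3, dpy-17, dpy-14 and dpy-10), against 3.86% of all protein-coding genes. Likewise 4 were within the 912 strongest of replicate 2 (sqt-3, dpy-14, dpy-7 and dpy-10), against 3.87% of all protein-coding genes. sqt-3, dpy-14 and dpy-10 were in both, a rule for which no share of all protein-coding genes was computed. Over the 10 genes, Spearman's rho between the ranks of the 2 replicates was 0.55, given as a description over genes that share the same 2 libraries.

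In the relaxed lists every one of the 10 genes had a region: 10 of 10 in the pooled list against 56.8% of all protein-coding genes, 10 of 10 in replicate 1 against 59.0%, and 10 of 10 in replicate 2 against 57.8%. These shares show how permissive the relaxed lists are. Held to the rank of dpy-8 (4235, a limit set after the values were seen), 14.8% of all protein-coding genes had a pooled summit in the window. The median rank of the strongest pooled region was 1015.5 over the 10 genes and 9895 over the protein-coding genes that had a region. The 10 genes are short, with a median length of 1440 bp against 2027 bp over all protein-coding genes, so their windows were shorter at the median.

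The kind of place was the same at all 10 genes, while the exact position varied. The strongest summit lay in coding sequence at 10 of the 10 genes in the pooled list, against 21.0% of all protein-coding genes, and likewise at 10 of 10 in replicate 1 and in replicate 2. The 21.0% is 4204 of 19973 genes, of which only 11348 had a pooled region in the window. It thus mixes having a region with where the region lies. Regions inside 4 of the 10 genes were also known when the genes were chosen. With the same limit on rank, 4.15% of all protein-coding genes had their strongest pooled summit in coding sequence. The distance from the TSS ran from 576 bp (rol-6) through a median of 786.5 bp to 1364 bp (dpy-10). In the protein the summit fell at codon 176 (rol-6) to 248 (dpy-2), with a median of 203, although the proteins are between 301 (sqt-3) and 452 codons (dpy-8) long. Summits of replicates 1 and 2 lay a median of 41 bp apart, from 6 bp at dpy-7 to 132 bp at sqt-1, all well within the width of a region.

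**Figure D2:**
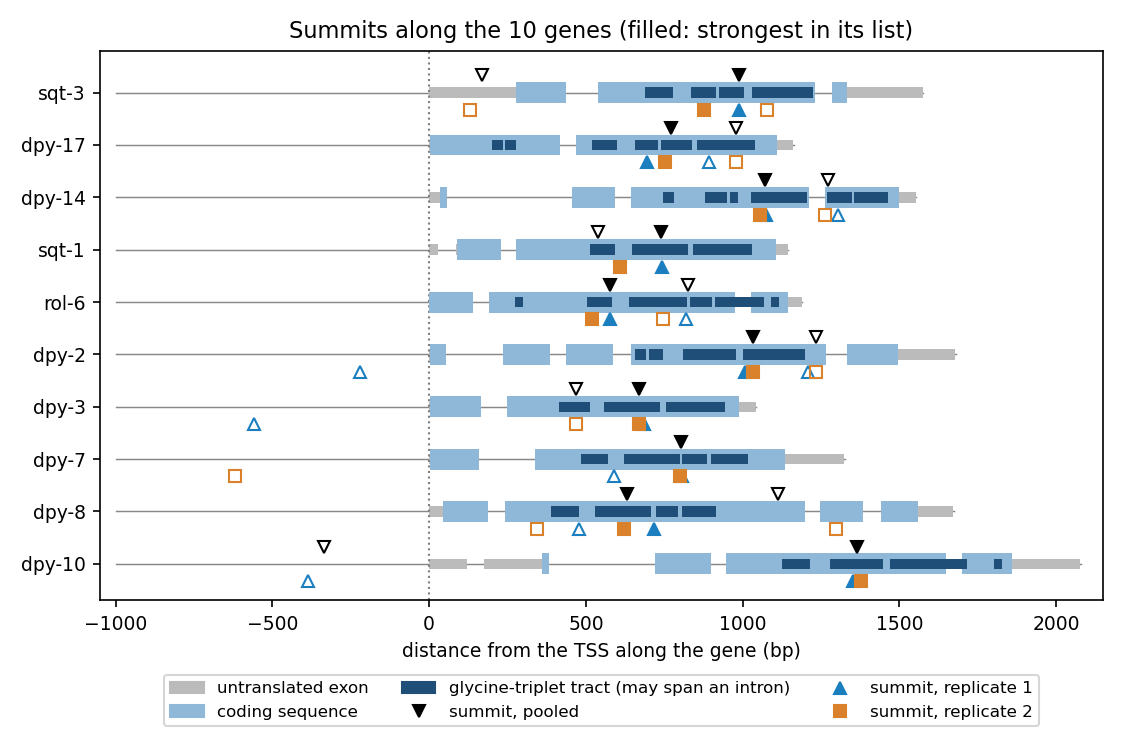
Each row is a gene drawn from 1000 bp upstream of its TSS (0 on the axis, in bp) to its end, with exons, coding sequence and Gly-X-Y tracts, pooled summits above the line and replicate summits below it. Filled marks are the strongest region of a list at that gene, and all 30 of them lie in coding sequence, over or beside the Gly-X-Y tracts.

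Each of the 10 proteins, as translated from the annotated coding sequence, held 50 to 57 Gly-X-Y triplets in tracts of at least 3 in a row, divided over 3 (sqt-1 and dpy-3) to 6 tracts (dpy-17, dpy-14 and rol-6). The strongest pooled summit lay between the start of the first tract and the end of the last in 10 of 10 genes, and inside a tract in 9. That span fills much of these proteins, from codon 75 to 339 of 348 in rol-6 and from 98 to 272 of 452 in dpy-8. A summit in coding sequence would thus often fall in it anyway, and no share for other positions was computed. At dpy-7, the exception, codon 207 lies in the gap between tracts of codons 147 to 206 and 209 to 235. From the middle of the repeat domain the summits were displaced by -31 codons (rol-6, towards the N-terminus) to 41 codons (dpy-17, towards the C-terminus), with a median of -2.75.

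Weaker regions flanked the strongest ones. The pooled list held 19 regions in the 10 windows, 2 at each gene except dpy-7, which had 1. The other 9 had signal values from 23.2 to 45.5 and ranks from 7420 to 28759, and 7 of them also lay in coding sequence. By list, 17 of 19 pooled regions, 16 of 19 of replicate 1 and 17 of 20 of replicate 2 lay in coding sequence. These counts are not independent, because the pooled list is made from the reads of both replicates and neighbouring regions can overlap. No share over all genes stands beside them.

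Promoters held little. Upstream summits numbered 1 in the pooled list, 3 in replicate 1 and 1 in replicate 2. The only upstream summit in the pooled list was at dpy-10, so that 1 of the 10 genes had any, against 27.9% of all protein-coding genes. With only 10 genes, a count of 1 does not set them apart from that share. The summit at dpy-10 lay at 6712562 (-335 bp from the dpy-10 TSS), with a signal value of 36.5 (rank 12811). Replicate 1 had a region there with 26.0 (rank 6496) and replicate 2 had none. dpy-10 and dpy-2 are divergent neighbours with 2064 bp between them, and this region lies in that interval on the dpy-10 side. Replicate 1 further had upstream regions at dpy-2 (13.2, rank 29188) and dpy-3 (14.6, rank 24877), and replicate 2 at dpy-7 (14.5, rank 25621), none of which the other replicate shared. sqt-3 was the only gene of the 10 with a summit in an untranslated exon, 170 bp after the TSS in the pooled list (27.2, rank 22621) and 130 bp after it in replicate 2 (16.2, rank 21476). The sole intronic summit was at dpy-14 in replicate 2 (19.2, rank 15478).

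GC content was high over these summits. In the 101 bp around the strongest pooled summit it ran from 50.5% (sqt-1) through a median of 56.9% to 67.3% (sqt-3), in a nuclear genome of 35.4%. The 4 genes with an optimal region had summit values from 56.4% (dpy-10) to 67.3%, and the 6 others from 50.5% to 58.4% (dpy-17), so the ranges overlap. Optimal summits of the whole list had a median of 52.5% and relaxed pooled summits a median of 44.6%. Strongest pooled summits in coding sequence had a median of 46.5% over 4204 genes of all kinds. Over 114 col genes that median was 60.4%, above the 56.9% here, so high GC at the summit is not particular to the 10 genes. Over the 10 genes, Spearman's rho was 0.53 between pooled signal value and GC at the summit and 0.03 between pooled signal value and GC of the whole coding sequence, both given as a description over genes that share libraries and base composition.

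The GC-rich stretch is wider than a region, with a median of 48.0% or more from 350 bp before to 300 bp after the summit. As the median of the 10 genes, GC content was 53.0% at 250 bp before the summit, 56.9% at the summit and 54.5% at 250 bp after it. It was 32.7% at 500 bp before the summit, 45.0% at 600 bp before it and 35.6% at 500 bp after it. Within a gene, the summit did not sit at the GC maximum: the richest 101 bp lay 40 bp (sqt-3) to 249 bp (dpy-14) away, with a median of 85 bp. The summit was richer than or equal to 99.0% of positions along the gene at dpy-14 but only 40.5% at sqt-1 and 50.9% at dpy-3. The 1000 bp upstream of the genes averaged 29.2% (dpy-3) to 41.0% GC (dpy-7).

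**Figure D3:**
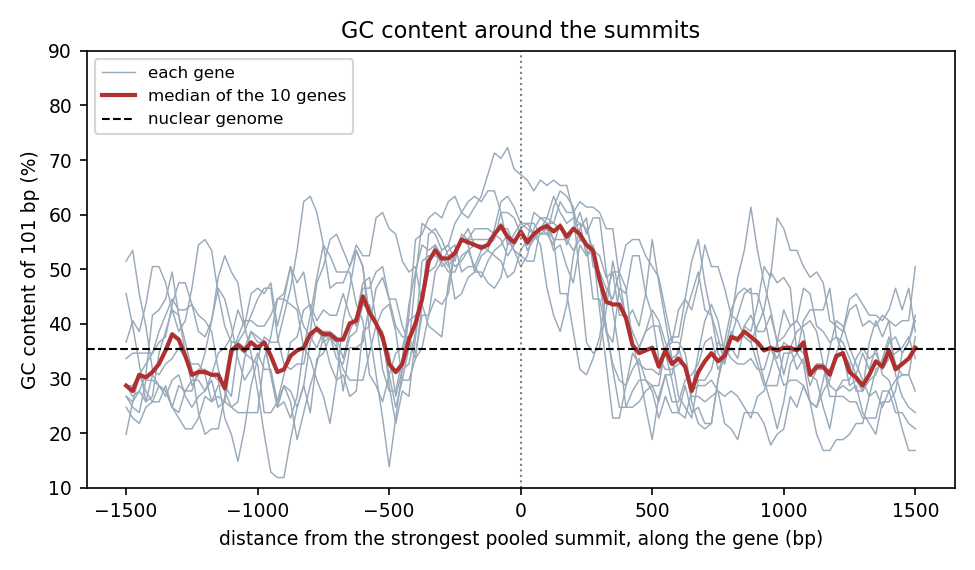
GC content (%) in sliding windows of 101 bp, by distance in bp from the strongest pooled summit along the gene, for each of the 10 genes and as their median. The median is 56.9% at the summit and 35.6% at 500 bp after it, near the genome's 35.4%. Before the summit it is 32.7% at 500 bp and again higher, at 45.0%, at 600 bp.

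Part of the GC content of these genes follows from the repeats by the genetic code. Every glycine codon starts with GG and every proline codon with CC, so neither can fall below 66.7% GC in any gene. Glycine and proline codons had a GC content of 66.7% (sqt-1) to 72.1% (dpy-7), against 37.5% (dpy-2) to 54.3% (sqt-3) in the other codons of the same genes. In the 33 codons around the summit, glycine and proline made up 33.3% (rol-6) to 60.6% of codons (dpy-3 and dpy-7). This was above the share in the rest of the coding sequence at 9 of the 10 genes, with medians of 53.0% near the summit and 34.9% elsewhere. Tracts are rich in glycine by definition, and the summits lay in or beside them. The higher share near the summit is therefore no separate result, and how much of it follows from that place was not tested. At rol-6 the share was below, 33.3% near the summit against 39.0% elsewhere. Its summit at codon 176 lies near the end of a tract of codons 152 to 178. GGA was the usual glycine codon, at 67.6% (dpy-7) to 95.0% (sqt-3) of glycines, and CCA the usual proline codon, at 79.3% (dpy-2) to 100% of prolines (dpy-14 and sqt-1). GC content moves with position in these genes, and its part in the regions was not tested.

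Over all protein-coding genes, the share with a coding-sequence summit was higher at higher GC content. The genes were divided into 10 equal classes by the GC content of their coding sequence. From the lowest class to the highest, the strongest pooled summit lay in coding sequence in 3.41% to 40.0% of genes, with a higher share in each class than in the class below. Optimal summits lay in coding sequence in 0 of 1997 genes of the lowest class and in 66 of 1998 genes of the highest (3.30%). Of the 10 collagen genes, 8 were in the highest class and 2 (dpy-14 and dpy-2) in the class below. In the highest class, 3 of 8 of these genes (sqt-3, dpy-7 and dpy-10) had an optimal coding summit, against 24 of 134 col genes and 37 of 1812 genes that were neither and had fewer than 20 Gly-X-Y triplets. Whether these shares differ was not tested.

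**Figure D4:**
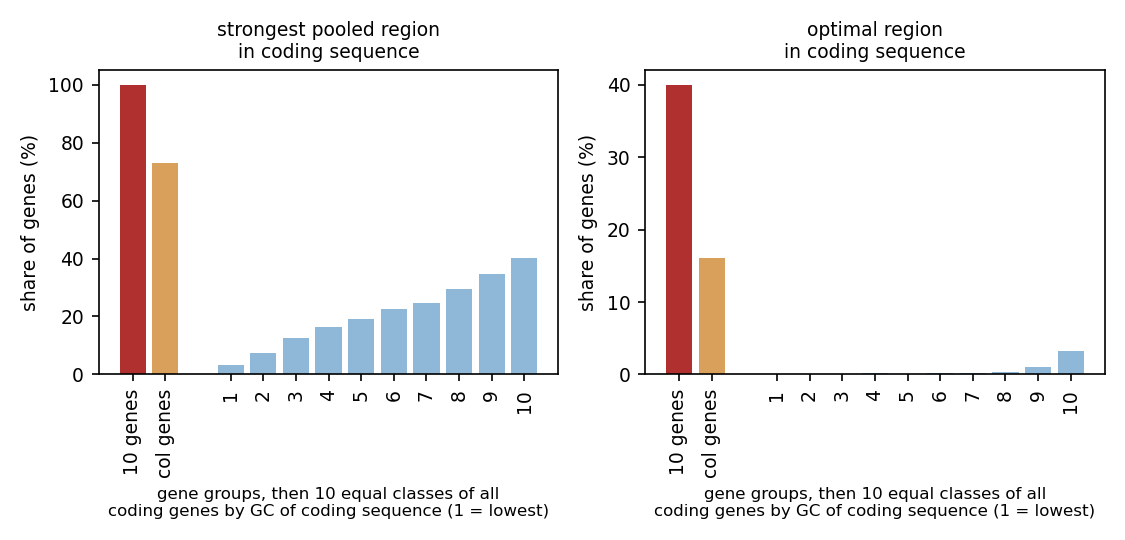
Share of genes (%) with the strongest pooled summit (left) or an optimal summit (right) in their own coding sequence, for the 10 genes, the 156 col genes and 10 equal classes of all protein-coding genes by coding GC content. Bars of these classes reach 40.0% on the left and 3.30% on the right at the highest GC.

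The genes most like these are the 156 numbered col genes, most of which also encode cuticle collagens. An optimal summit lay in coding sequence at 4 of the 10 genes (40.0%) and at 25 of the 156 col genes (16.03%), and a pooled summit was strongest in coding sequence at 10 of 10 and at 114 of 156 (73.1%). Median ranks were 1015.5 over the 10 genes and 2201 over the col genes that had a region. The col genes had the higher coding GC, with medians of 53.5% in the 10 genes and 55.1% in the col genes. The strongest optimal summits in bodies of col genes were at col-85 (signal value 269), col-99 (248) and col-72 (143), all of them intronic and all above the 107 of sqt-3. A further 5 col genes had an optimal summit in coding sequence above that of sqt-3, with signal values of 112 to 129. No test was made between these groups, because the 10 genes were chosen with their regions known. In a further 61 genes with at least 20 Gly-X-Y triplets, 2 had an optimal coding summit and 44 had their strongest pooled summit in coding sequence.

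The 10 proteins are related but far from identical. Over the 45 pairs, aligned residues were identical in 37.2% (dpy-17 and dpy-8) to 47.2% (dpy-17 and sqt-1), with a median of 40.3%. At the DNA level, the longest stretch of each 101 bp summit window found again elsewhere in the nuclear genome was 17 bp (rol-6) to 27 bp (dpy-3). The matches lay in other collagen genes for all but rol-6, such as sqt-2 for dpy-2, dpy-2 for dpy-17, dpy-14 for dpy-7, col-60 for dpy-14 and the basement membrane collagen gene let-2 for dpy-3. Read length is not given in the sources used here, and the part of shared sequence in the regions was not tested.

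An E-box, the sequence CANNTG that bHLH proteins bind (a palindromic pattern, so both strands are covered), was present within 50 bp of the strongest pooled summit in 8 of the 10 genes, all but sqt-1 and dpy-7. Among the genes whose sequences are shown, rol-6 held CAGATG, dpy-2 held CACATG as well as CACCTG and CAGCTG, and dpy-10 held CAACTG. Further, dpy-17 held CAATTG and CAACTG, dpy-3 held CAACTG, and dpy-8 held CACCTG and CACTTG. The CAACTG of dpy-17 and dpy-3 and the CACTTG of dpy-8 end just beyond the codons printed. The same windows held an E-box in 33.6% of optimal summits and 36.4% of pooled summits over the genome. Among strongest pooled summits in coding sequence the share was 43.0% over 4204 genes of all kinds and 63.2% over 114 col genes. In promoters of 300 bp (250 bp before to 50 bp after the TSS), 8 of the 10 genes held an E-box, all but dpy-3 and dpy-10, against 69.4% of all protein-coding genes. A match describes the letters only.

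No tRNA, snoRNA or snRNA gene overlapped these summits. The nearest such gene lay 843 bp (dpy-2) to 101586 bp (rol-6) from the strongest pooled summit. At dpy-2 it was the snRNA gene T14B4.10. No other coding gene had any of the 10 summits in its own window, and no other annotated gene overlapped them.

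Other genes of the cuticle and the epidermis were taken from 4 lists by function. The 43 genes found under the 45 symbols sought had a median length of 4891 bp, against 2027 bp over all protein-coding genes. Their windows were thus longer at the median. Of these 43 genes, 2 had an optimal summit in the window (4.65%), close to the 3.92% of all protein-coding genes. The 2 genes were bli-4 (I, 6342224 to 6356680), a proprotein convertase that trims collagens, with an intronic summit of signal value 97.3, and mlt-10 (II, 546705 to 552032), a molting gene, with a summit in coding sequence of signal value 103. bli-4 had 46.3 in replicate 1 (rank 845) and 47.5 in replicate 2 (rank 876), close to each other. mlt-10 had 36.4 in replicate 1 (rank 2097) and 63.3 in replicate 2 (rank 306), so it rests mainly on replicate 2.

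Of the 11 other body-shape cuticle collagens found, such as the blister genes bli-1 and bli-2, 0 had an optimal region, against 3.92% of all protein-coding genes, a share at which 11 genes would hold few or none. Their strongest pooled summit was in coding sequence in 10 of the 11 (90.9%), as in all 10 genes described here, against 21.0% of all protein-coding genes. The remaining gene, dpy-4, had no region in any list, with a coding GC of 59.5% and 50 Gly-X-Y triplets. Over the 10 of these 11 collagens that had a region, the median rank was 3265.5. Among them dpy-9, the further furrow collagen, named here after its values were seen, had its strongest pooled summit at rank 3230, between rol-6 and dpy-8. Of 12 genes for collagen folding, processing and cross-linking, 1 had an optimal region and 6 had the strongest pooled summit in coding sequence (50%). Of 10 apical matrix genes that are no collagens, 1 had an optimal region and 6 had the strongest pooled summit in coding sequence (60%). Of 10 epidermal transcription factor genes, 0 had an optimal region and 2 had the strongest pooled summit in coding sequence (20%), near the share of all genes. With 1 gene or none per list, the optimal counts do not set any list apart from all genes. Median coding GC was 54.0% in the other body-shape collagens, 43.1% in the processing genes, 46.8% in the matrix genes and 44.3% in the factor genes. Median gene length was 1209 bp, 5277 bp, 5294 bp and 5472 bp in the same order, against 2027 bp over all protein-coding genes. A longer gene has a larger window for a summit to fall in, and the shares were not adjusted for length.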

How the data were processed

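ChIP-seq region lists of 2 biological replicates were used as deposited on build ce11. Per the README texts beside them, the authors made each replicate list from the reads of that replicate against a control, the pooled list from the reads of both, and the optimal list by IDR. The sources used here give no aligner, peak caller, filter or IDR threshold. Column 7 is a score the authors deposited per region (signal value), and column 9 is the authors' −log10 q-value, which was not used to rank. The authors' lists on another build were not analysed here.

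Regions were ranked by signal value and assigned by summit with Python 3.11.15 to genes of Ensembl release 115 (WBcel235, the assembly of ce11). Sequence, GC content (50 bp to each side of a summit) and codons came from the RefSeq genome of that assembly, using the longest coding sequence of a gene. Proteins were aligned with Biopython 1.88 (BLOSUM62, global, gap costs 11 and 1). A further sequence window is not reported here. The assignment was checked on simulated regions. The members and lists were chosen with earlier results of these data known, so no test was made. Named genes were the 10 members, listed genes with an optimal summit, the 3 col genes with the strongest optimal summit, and genes that shared a summit with a member, of which there were none. bli-1, bli-2, dpy-4, dpy-9, sqt-2, col-60, let-2 and T14B4.10 fall outside this rule and were named after their values were seen.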

Additional observations from a re-analysis of the deposited data

How the results depend on the processing

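Of the 10 genes, 4 had an optimal region, all in coding sequence. In the 456 strongest optimal regions the count was 2 (sqt-3 and dpy-14), and in the 1824 strongest pooled regions it was 7, with the same values for summits in coding sequence. Each replicate alone gave 4 for both counts. Upstream summits stayed at 0 in all 4 of these settings. The count of optimal regions stayed at 4 and that of relaxed pooled regions at 10 under 2 other overlap rules and 3 other windows. Relaxed regions also numbered 10 in each replicate alone and in the 10000 strongest pooled regions. Of the 10 genes, 3 had their strongest region within the 912 strongest regions of both replicates, as did 3 with an overlap of at least 50% of a region, and 5 within the 1824 strongest. The 2 other cuticle and epidermis genes with an optimal region became 0 in the strongest 456 and 9 in the 1824 strongest pooled regions, and 2 to 4 in a replicate alone. The median GC content at the 4 optimal summits was 57.9%, against 55.9% within 25 bp, 56.0% within 100 bp, 56.5% over whole regions and 56.9% to 57.4% at the summits of a replicate alone. The cause of these shifts was not tested. No paired analysis was possible because there is a single group. Depth is unknown, and weak regions at the end of the relaxed lists are no calls.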
